A study of Sinonovacula constricta with 9 samples.

Results

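In juvenile razor clams (Sinonovacula constricta), 226 unigenes were expressed at a low level at 5 psu, a higher level at 15 psu and the highest level at 25 psu. A unigene is an assembled transcript sequence listed under its own identifier, and psu, the practical salinity unit, is close to grams of salt per kilogram of water. The 226 were selected on the measured FPKM (the number of fragments relative to the length of the unigene and to the size of the library) in all 9 libraries. A unigene was eligible with a mean of at least 5 FPKM and at least 300 summed reads, and if it was not among the 100 with the most reads. Of 246672 unigenes, 15060 were eligible. A member had every 5 psu value below every 15 psu value, every 15 psu value below every 25 psu value, and a ratio of group means (each + 0.1) of at least 1.5 at both steps. The members make up 1.50% of the eligible unigenes. Because these values chose the members, the order of the groups and the lower limit of both steps are a description and no finding.

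The 3 groups were whole juveniles on day 15 after fertilization, kept for 6 h at 5 psu (low salinity), at 15 psu (the optimal salinity and the control) or at 25 psu (high salinity), with 3 libraries each. No genetic change or other agent is given for any group. The labels do not say how many animals or cultures a library holds, so the spread between libraries may be technical. Whole animals were sequenced, so fewer cells of a type and less RNA per cell cannot be told apart.

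Marine and estuarine bivalves are osmoconformers: their body fluid follows the water, and their cells hold their volume by shifting ions and organic solutes. Free amino acids such as alanine, proline and glycine, and the related taurine, are the main solutes that bivalve cells gather when salinity rises and release or break down when it falls. This is background to the design. The deposited files do not pair identifiers with gene names, so none of the 226 can be assigned to such a pathway, and no gene list could be counted.

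Together the members took 0.296%, 0.326% and 0.339% of all reads in the libraries at 5 psu, 0.674%, 0.694% and 0.632% at 15 psu, and 1.24975%, 1.22% and 1.18% at 25 psu. The group means were 0.320% ± 0.0220, 0.666% ± 0.0318 and 1.22% ± 0.0340 (SD, n = 3 each). The median member stood at 4.42, 5.31 and 5.495 FPKM at 5 psu, at 10.6, 11.4 and 9.69 FPKM at 15 psu, and at 21.6, 21.2 and 21.4 FPKM at 25 psu. Replicate 1 at 5 psu held the lowest value of its group for 140 of the members (61.9%), and for 47.2% of all eligible unigenes. On the log2 scale the members' mean deviation from their own 9-library average was -1.30 in that library and -1.03 and -1.05 in the other 5 psu libraries. At 15 psu, replicate 3 was lowest for 41.6% of the members and 24.6% of eligible unigenes, and replicate 2 for 19.5% and 32.2%.

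**Figure D1:**
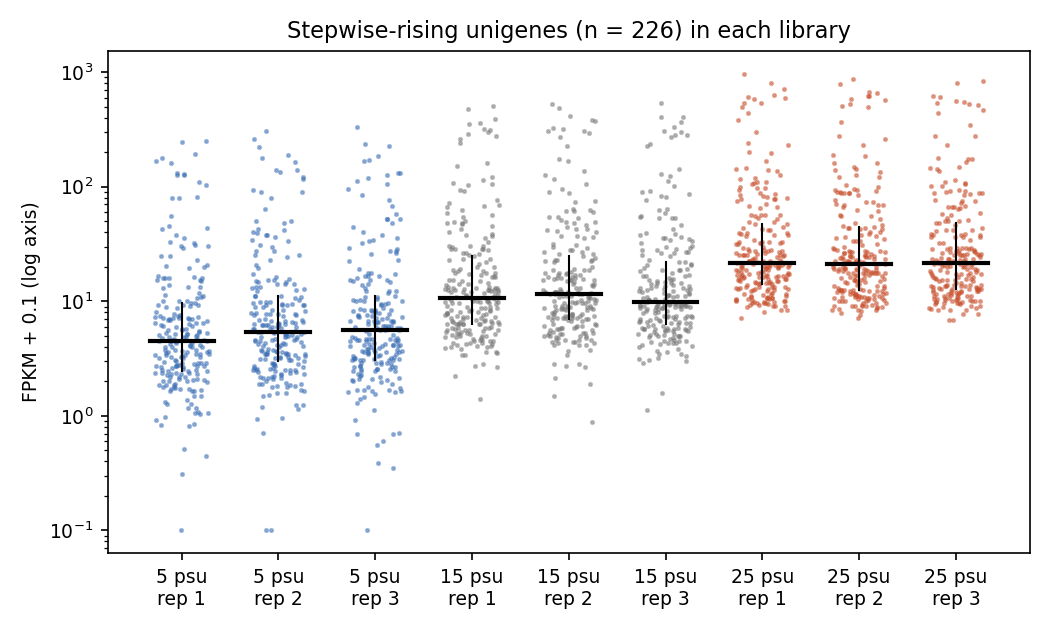
FPKM + 0.1 (log axis) of the 226 unigenes in each of the 9 libraries; each point is a unigene, the horizontal bar the median and the vertical line the interquartile range. The medians lie between 4.42 and 5.495 FPKM at 5 psu, between 9.69 and 11.4 at 15 psu and between 21.2 and 21.6 at 25 psu, and points at 0.1 are unigenes listed at 0.

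The rising order was the most frequent among the eligible unigenes whose 3 groups did not overlap. It was seen in 1012 eligible unigenes (6.72%), of which the 226 members also passed both ratio limits. The falling order, with the highest values at 5 psu, was seen in 368 (2.44%). Each of the other 4 orders, where 15 psu is the lowest or the highest group, held 69 to 100 unigenes (0.458% to 0.664%). With the ratio limits applied in the falling direction, 42 unigenes remained (0.279% of those eligible). Those 42 took 0.193% to 0.222% of reads at 5 psu, 0.0675% to 0.0712% at 15 psu and 0.0296% to 0.0305% at 25 psu.

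**Figure D2:**
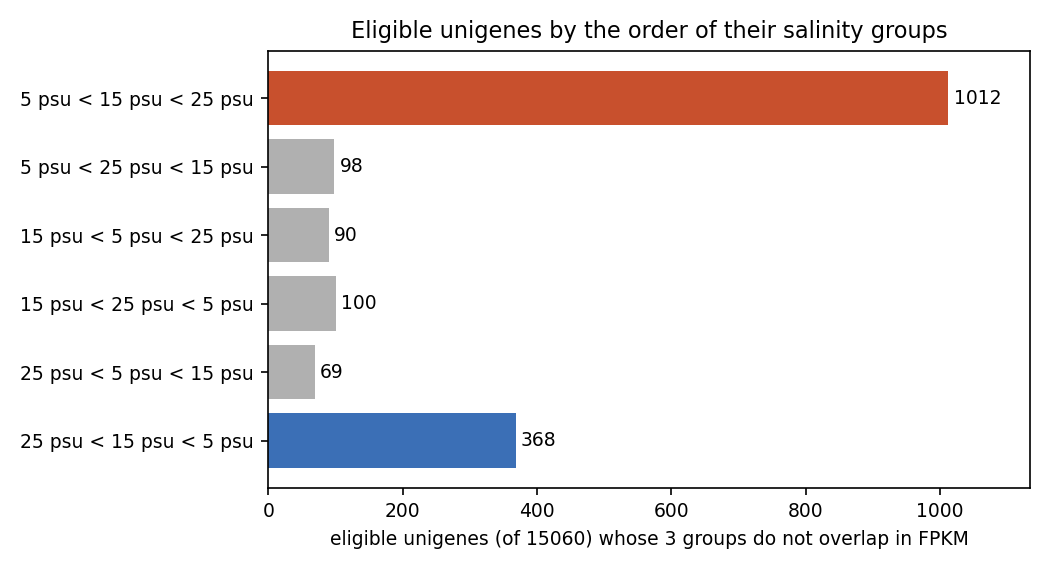
Number of eligible unigenes (of 15060) in each of the 6 possible orders of the salinity groups, counting those whose 3 groups do not overlap in FPKM. The rising order holds 1012 and the falling order 368, against 69 to 100 in each of the others.

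The members ranged widely in abundance, from a 9-library mean just above 5 FPKM to 538 FPKM, with a median of 12.5 (interquartile range 7.25 to 27.1), against a median of 10.5 (6.93 to 20.9) for all eligible unigenes. Means of at least 100 FPKM were reached by 18 members (7.96%), against 5.31% of eligible unigenes. These 18 took 0.138% ± 0.00341 of reads at 5 psu, 0.287% ± 0.0145 at 15 psu and 0.468% ± 0.0227 at 25 psu (SD, n = 3 each). The other members took 0.182% ± 0.0186, 0.380% ± 0.0206 and 0.749% ± 0.0157 (SD, n = 3 each). The rule fixes the direction of both sums.

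The most abundant member by mean FPKM, the measure behind all places by abundance here, was Cluster-8005.104396. Its FPKM was 244, 306 and 333 at 5 psu, 474, 526 and 536 at 15 psu, and 806, 788 and 832 at 25 psu. In edgeR's model of the read counts, the log2 fold change was -0.80 (SE 0.09) for 5 psu over 15 psu and 0.59 (SE 0.09) for 25 psu over 15 psu. The second by abundance held 248, 224 and 225 FPKM at 5 psu, 507, 488 and 404 at 15 psu, and 972, 872 and 804 at 25 psu. The third held 178, 263 and 235 FPKM at 5 psu, 315, 375 and 335 at 15 psu, and 540, 656 and 623 at 25 psu. In the second, replicate 1 was the highest of its group at every salinity, and in the third it was the lowest. The 4th differed in shape, with 103, 90.4 and 118 FPKM at 5 psu, 389, 418 and 406 at 15 psu, and 717, 665 and 528 at 25 psu, a 3.89-fold ratio of means at the lower step and a 1.58-fold ratio at the upper one. The fifth had 162, 177 and 184 FPKM at 5 psu, 353, 384 and 367 at 15 psu, and 599, 621 and 544 at 25 psu. The ninth, singled out after its values were seen, held the most reads of any member, 17404 to 24681 per library at 25 psu against 4792 to 5608 at 5 psu.

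Cluster-8005.165557 had the largest ratio of 25 to 5 psu, 106 by mean FPKM (each + 0.1). It was listed at 0, 0 and 0.25 FPKM at 5 psu, at 2.12, 1.80 and 1.49 FPKM at 15 psu, and at 20.3, 17.6 and 20.1 FPKM at 25 psu. The 5 psu libraries held 3 reads in all and the 25 psu libraries 622. The ratio of these sums, scaled to library totals, was 215, with an exact 95% counting interval of 73.3 to 1046. The interval covers counting error only, and not the choice of this member as the one with the largest ratio. Against 15 psu, where the libraries held 16 to 24 reads, its 25 psu level had a log2 fold change of 3.43 (SE 0.34).

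Other members were also close to silent at 5 psu. In all, 6 members had a mean under 1 FPKM there, and none was at 0 in all 3 libraries. Such members passed the limit on the 9-library mean through their values at the higher salinities. The share of eligible unigenes this low at 5 psu is not given here. The second by ratio had 9 reads at 5 psu, all in replicate 1, with 0.73, 0 and 0 FPKM. It varied more than most at 15 psu, at 5.42, 2.02 and 9.77 FPKM, and stood at 18.1, 22.3 and 19.6 FPKM at 25 psu. The ratio of its summed reads at 25 over 5 psu was 86.6, with an exact counting interval of 45.4 to 190. The third by ratio held 0.21, 0.61 and 0.29 FPKM at 5 psu, 1.31, 0.78 and 1.03 at 15 psu, and 16.4, 11.9 and 13.4 at 25 psu. The 25 over 5 psu ratio of mean FPKM (each + 0.1) was 58.6 in the second, 29.8 in the third, and 21.9 and 20.1 in the next pair. Across the members this ratio had a median of 3.94 (interquartile range 2.996 to 5.62). It reached 4 in 111 members and 10 in 22, none of which had a mean of 100 FPKM or more.

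**Figure D3:**
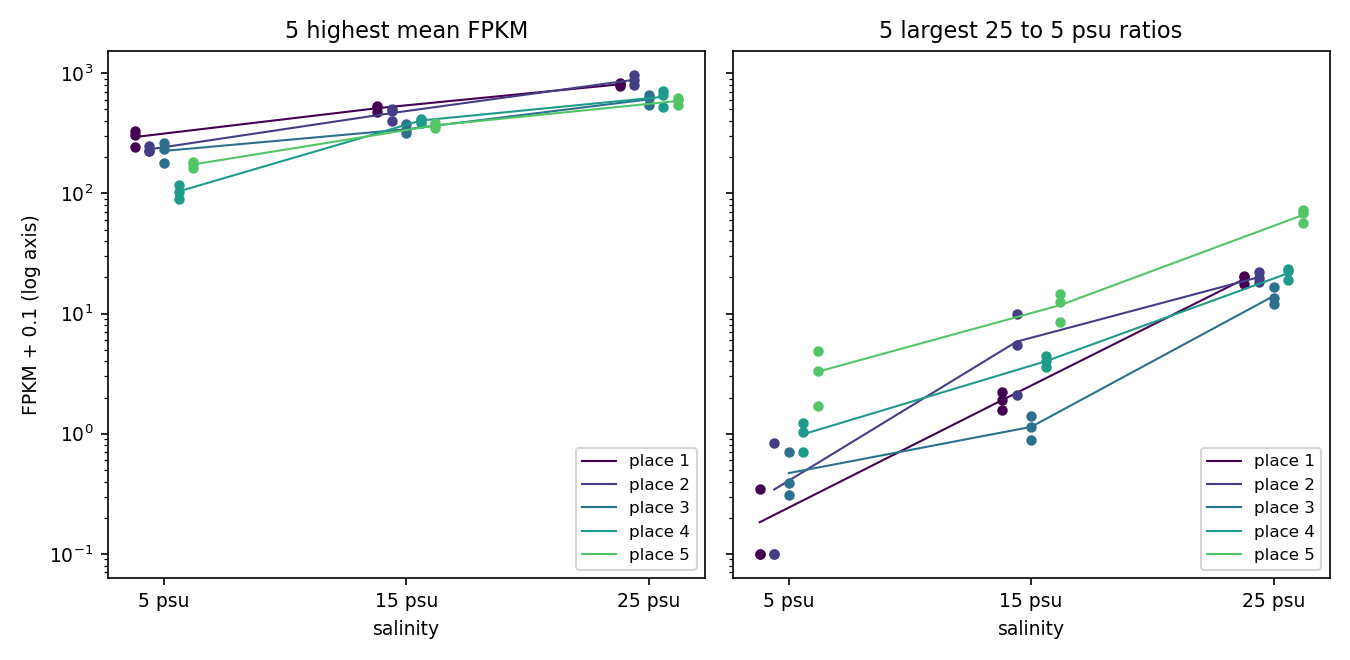
FPKM + 0.1 (log axis) at 5, 15 and 25 psu for the 5 members with the highest mean FPKM (left) and the 5 with the largest ratio of 25 to 5 psu (right); points are the 3 libraries of each group and lines join the group means. The abundant members change from 104 to 294 FPKM at 5 psu to 588 to 883 FPKM at 25 psu, while the members on the right lie between 0.0833 and 3.18 FPKM at 5 psu and between 13.9 and 65.9 FPKM at 25 psu.

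Beside the counts of all unigenes tested, the members were called as follows by edgeR's quasi-likelihood test on read counts (Benjamini-Hochberg adjusted p under 0.05, adjusted over 71915 unigenes, of which all 226 members were part). At 5 against 15 psu, 170 members were called lower, where 1.60% of all unigenes tested were. At 25 against 15 psu, 156 were called higher, where 1.67% of all were, and at 25 against 5 psu all 226 were, where 6.48% of all were. Among the eligible unigenes the shares called in these 3 comparisons were 4.67%, 5.13% and 15.3%. The rule used each of these contrasts, so nothing is read from these counts. The first 2 comparisons share the 15 psu libraries. Median log2 fold changes of the members were -1.05 (median SE 0.18) at 5 against 15 psu and 0.86 (median SE 0.17) at 25 against 15 psu. Leaving out replicate 3 at 15 psu turned the 156 into 83, and leaving out replicate 2 at 25 psu turned it into 93. Adding each library's length offset (described with the lengths) as a covariate left 29, at a median log2 fold change of 0.94 and a median SE of 0.25. All 25 psu offsets lay below all 15 psu offsets, so offset and salinity are hard to tell apart at this step.

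The rule asked each step to reach 1.5 without overlap of the groups, but did not compare the steps. Both steps come from the values that chose the members, so their sizes are a description. By mean FPKM, the median ratio of 15 over 5 psu was 2.07 (range 1.50 to 17.0) and that of 25 over 15 psu was 1.78 (1.50 to 12.3). The step between 5 and 15 psu was the larger in 145 members (64.2%). By FPKM, the share was 57.1% of the 91 members under 10 FPKM, 66.7% of the 117 from 10 to 100 FPKM and 83.3% of the 18 at 100 FPKM and over. The number depended on the scaling. In edgeR's model of the read counts this step was the larger in 138 members. With counts scaled to library totals alone it was the larger in 156, and with the length offset as a covariate in 116. By signed change in edgeR's model, it was the larger in 7144 of 15041 eligible unigenes, which need not rise. Both steps reached 2 in 55 members. In the 42 falling unigenes the step between 5 and 15 psu was the larger in 26.

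The difference between the steps was tested in the count model as the log2 step to 25 psu less the log2 step from 5 psu. A lower limit on both steps narrows this difference among the members, and the test uses the same libraries that chose them. Its median was -0.12 in the members (interquartile range -0.38 to 0.15, median SE 0.29) and 0.02 in the eligible unigenes (-0.25 to 0.30). The 95% interval of the difference covered 0 in 187 of the 226, so for most members the data do not tell the steps apart. In 5 members the step to 25 psu was called larger (0.476% of all unigenes tested had this call) and in 1 the step from 5 psu (0.177% of all). These shares of the members stand near those of the eligible unigenes, at 1.58% and 0.472%. Without adjustment, 11 and 28 members had a p under 0.05 in these directions, as did 1418 and 1144 of 15041 eligible unigenes. Without replicate 2 at 15 psu, 1 of the 6 was still called, and without replicate 1 at 15 psu none of the 6 was, while 1 other member was called. Without replicate 2 at 5 psu, replicate 2 at 25 psu or replicate 3 at 25 psu, 3 of the 6 were still called. Without replicate 3 at 15 psu no member was called by edgeR (43 at an unadjusted p under 0.05), nor was any once the length offset was a covariate (22 at an unadjusted p under 0.05). DESeq2's Wald test called 13. Calls over all unigenes moved too, from 469 in the main fit to 1279 by DESeq2's Wald test. They fell to 133 to 155 without each 15 psu replicate in turn, and to 81 with the length offset as a covariate.

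In the 5 members with the larger step to 25 psu, the ratio of means was 1.53 to 2.02 at the lower step and 3.66 to 6.39 at the upper one. The clearest by the size of the difference had 1.70, 1.47 and 2.12 FPKM at 5 psu, 2.73, 2.58 and 3.20 at 15 psu, and 19.96, 14.2 and 16.9 at 25 psu, with a log2 difference between steps of 1.97 (SE 0.28, edgeR adjusted p = 0.0155). Another had 6.01, 6.82 and 4.48 FPKM at 5 psu, 10.7, 11.9 and 12.7 at 15 psu, and 79.0, 73.7 and 74.8 at 25 psu, with a difference of 1.73 (SE 0.27, edgeR adjusted p = 0.0255). The remaining 3 had differences of 1.02 to 1.57. The third by ratio, whose difference of 2.38 (SE 0.60) was the largest of all members, was not called (edgeR adjusted p = 0.159), and the second by ratio had the largest difference the other way, -2.69 (SE 1.37, edgeR adjusted p = 0.576). The single member called with the larger step from 5 psu was the 4th by abundance, at -1.46 (SE 0.26, edgeR adjusted p = 0.0402).

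**Figure D4:**
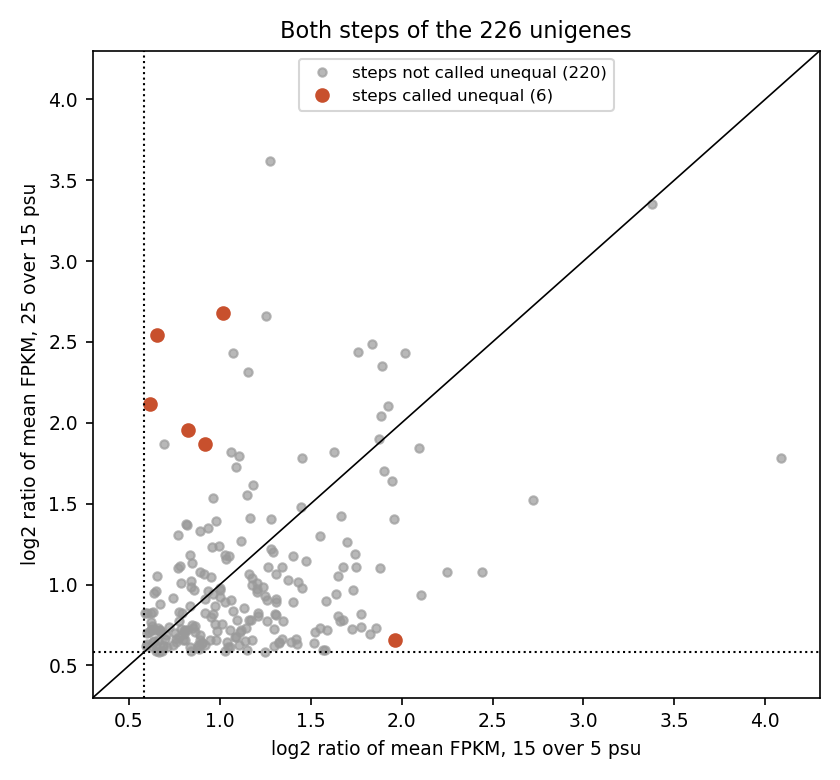
Log2 ratio of mean FPKM (+ 0.1) at 25 over 15 psu against that at 15 over 5 psu for the 226 unigenes; dotted lines mark the ratio of 1.5 that the rule required, the diagonal marks equal steps, and the 6 larger points are members whose steps were called unequal. Of the 226 points, 145 lie below the diagonal.

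Effective lengths implied by the deposited read counts and FPKM were not used by the rule. Their median was 919 nucleotides in the members (interquartile range 498 to 1758), 861 in the 42 falling unigenes and 1112 in the eligible unigenes (559 to 2050). Lengths under 300 nucleotides were found in 32 members (14.2%) and in 9.61% of eligible unigenes. Of the 18 members with at least 100 FPKM, 7 were under 150 nucleotides, as were 163 of the 799 eligible unigenes with at least 100 FPKM. The 4 with the highest mean FPKM had 118, 30.7, 22.1 and 69.0 nucleotides. FPKM divides by this length. These 4 held 9575, 2447, 1307 and 3982 summed reads, against 56124 in the fifth.

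For members of such short effective length the step in FPKM differed from the step in reads. The libraries' effective length offsets (each library's typical departure from the mean length) were -4.05 to 6.27 nucleotides in the 5 psu libraries, -2.51 to 11.4 in the 15 psu libraries and -6.33 to -4.43 in the 25 psu libraries, so 25 psu lay 10.05 nucleotides below 15 psu on average. In the 12 members under 150 nucleotides the median ratio of 25 over 15 psu was 1.89 in FPKM and 1.70 in CPM (counts scaled to the library total, with TMM factors). In the 110 members of 1000 nucleotides or more it was 1.84 in FPKM and 1.85 in CPM. The 3 members under 50 nucleotides had an FPKM ratio 1.20 to 1.24 times their CPM ratio, and 9 members from 50 to 150 nucleotides 1.04 to 1.099 times. The same shift was seen in the 448 eligible unigenes under 150 nucleotides, where the median ratio of 25 over 15 psu was 1.004 in FPKM and 0.916 in CPM. For the third and the 4th by abundance the CPM ratios of 25 over 15 psu were 1.46 and 1.43, under the limit of 1.5 that their FPKM ratios of 1.77 and 1.58 passed. A single longer member, of 1267 nucleotides, also departed, with a ratio of 1.86 in FPKM and 1.56 in CPM.

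**Figure D5:**
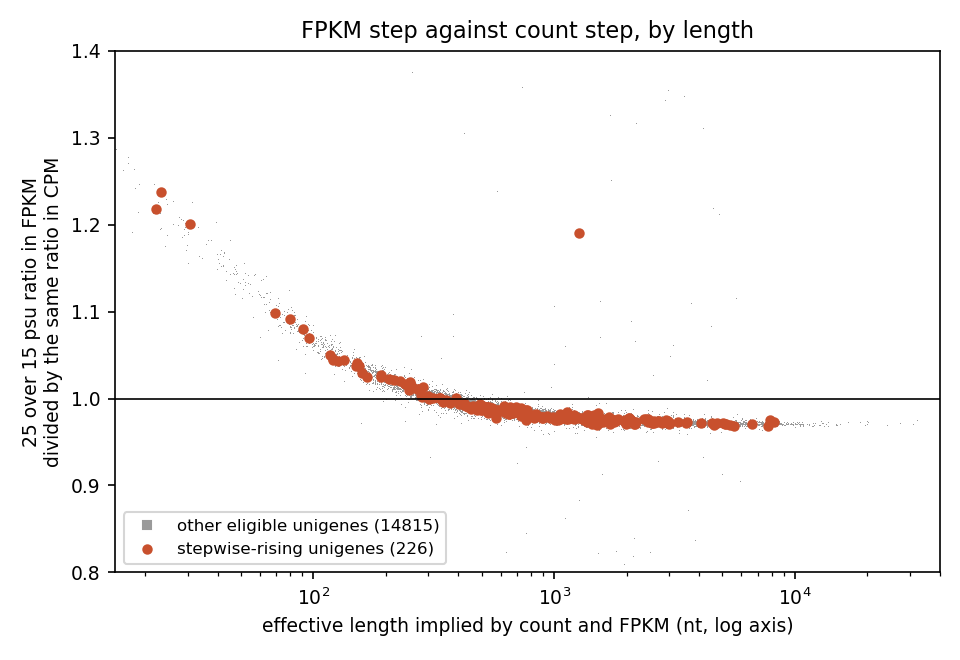
Ratio of 25 over 15 psu in FPKM divided by the same ratio in CPM (y axis) against the effective length implied by reads and FPKM (x axis, nucleotides, log axis); large points are the 226 members and small points the other 14815 eligible unigenes with values in every group, of which 79 fall outside the axes. Members under 50 nucleotides lie at 1.20 to 1.24, and those of 1000 nucleotides or more have a median of 0.97503.

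Most members kept their order when reads were used in place of FPKM. In TMM-scaled CPM the groups of 224 members did not overlap and 214 met the whole rule, and with library totals alone 223 and 206 did. Of the 12 members under 150 nucleotides, 9 met the rule in TMM-scaled CPM, against 107 of the 110 of 1000 nucleotides or more.

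Spread between replicates was largest at 5 psu. The median coefficient of variation of the members was 19.1% at 5 psu, 11.4% at 15 psu and 8.38% at 25 psu. In the eligible unigenes it was 14.5%, 9.66% and 9.55%. The requirement of no overlap limits the spread that members can have, and the cause of these differences was not tested.

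By assembly cluster, 225 members came from the 1 cluster that holds 178061 unigenes (72.2% of the assembly), as did 15040 of the eligible unigenes. The member from another cluster had 1.56, 2.48 and 2.06 FPKM at 5 psu, 7.07, 8.65 and 7.20 at 15 psu, and 13.3, 12.3 and 12.7 at 25 psu. Reads split among unigenes left non-whole counts in 154 members (68.1%) and in 64.6% of eligible unigenes, so the values of single members can include reads of related sequences.

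Within the large cluster, unigenes numbered next to a member more often had the rising order than unigenes at large. Of 84 eligible unigenes that were not members and whose number differed by 1 from that of a member, 21 (25.0%) had the rising order without overlap between the groups. At a distance of 2 to 5, 30 of 300 had it. The share was 7.28% of 371 at 6 to 10, 5.53% of 2368 at 11 to 50, and 5.31% of all 14815. For the falling order the shares were 3.57%, 2.33%, 5.39%, 2.49% and 2.48%, with no such gradient. What the numbers mean in the assembly is not given in the sources used here, and shared reads between such neighbours were not tested. Non-whole counts were found in 64.3% of the unigenes at a distance of 1 and in 64.6% at large. A non-whole count does not tell which unigene shares the reads, so these shares do not bear on sharing between neighbours.

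Adjacent numbers also joined 16 of the members into 8 pairs, and 12 of these 16 had non-whole counts. In 1 pair the implied lengths were 1334 and 1326 nucleotides, and the ratios of 25 over 5 psu were 4.48 and 3.36. Another pair, at 1521 and 1459 nucleotides, had the steepest gradients of the 16, with ratios of 15.2 and 10.9. One of the pairs with whole counts in all libraries, at 430 and 345 nucleotides, had ratios of 4.67 and 3.36. Of the 8 pairs, 2 had whole counts in all libraries, and reads shared within a pair were not tested.

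The 2 members closest above the limit of 1.5 at 15 over 5 psu had ratios of 1.503 and 1.507, and the 2 unigenes just outside it 1.4996 and 1.499. At 25 over 15 psu these were 1.5001 and 1.5003 inside and 1.497 and 1.493 outside. By mean FPKM they were 5.003 and 5.03 inside and 4.98 and 4.97 outside, and by summed reads 318 and 328 inside and 296 and 293 outside. With all other conditions met, the ratio of 15 over 5 psu alone kept out 94 unigenes, that of 25 over 15 psu 245, the mean FPKM 183, the summed reads 31 and the overlap of groups 19. None of the 100 unigenes with the most reads met the rest of the rule.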

How the data were processed

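The authors deposited, per the file headers, an estimated count of reads (expected count, not whole for 25.0 to 27.6% of unigenes) and an FPKM value with 2 decimals for each unigene and library. The submitters' processing notes name Bowtie2 and RSEM without versions, and the assembler is not given in the sources used here. Total counts ran from 15897903 to 18427234 per library. The rule was applied to the deposited FPKM. For the fits, counts were rounded, filtered with filterByExpr (count minimum 10, leaving 71915 unigenes with 97.7 to 98.6% of counts), scaled with TMM and tested with edgeR 4.0.16 (quasi-likelihood F test, robust, 3 groups, 9 libraries, Benjamini-Hochberg at 0.05 over all unigenes; R 4.3.3). The fit was also run on counts simulated from its own model with equal steps only, so its power to find unequal steps was not examined. SE is the fold change over the square root of F, and 95% intervals use the t quantile. Implied effective length is the count divided by FPKM and library total; a library's offset is its median deviation over unigenes of at least 2000 mean counts. Alternatives used limma 3.58.1 and DESeq2 1.42.0.

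The members and comparisons were chosen with earlier results of these data known. By identifier, the member with the highest mean FPKM and the one with the largest ratio are named; others are given by place. No 2 replicates of a group agreed within sampling noise (chi-square over its degrees of freedom 4.24 to 18.5).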

Additional observations from a re-analysis of the deposited data

How the results depend on the processing

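The rule gave 226 members. A lower limit of 5/4 on both steps gave 574, and a limit of 2 gave 55. A lowest mean of 1 FPKM gave 394, and of 10 FPKM 135. Sums per assembly cluster gave 1, since nearly all members share a cluster. Other settings of the rule stayed within 1.5 times, and leaving out each library gave 203 to 273. Leaving out each library gave 124 to 158 members called at 5 against 15 psu (170 with all), 83 to 169 at 25 against 15 psu (156), 225 to 226 at 25 against 5 psu (226) and 0 to 7 with unequal steps (6). Once the length offset was a covariate, 29 were called at 25 against 15 psu and 0 had unequal steps. The median SE went from 0.167 to 0.245 at 25 against 15 psu, where the offsets of the groups do not overlap. At 5 against 15 psu, where they do, it went from 0.176 to 0.185. The cause was not tested further. DESeq2's Wald test gave 13 with unequal steps and no filter on low counts gave 10. Over all unigenes these settings called 1279 and 799, against 469 in the main fit. With a replicate block the counts of members were 153, 137, 226 and 4. Deviations of same-numbered libraries correlated at -0.0127 to 0.0946, so the numbers were not taken as pairs. The median difference between steps stayed between -0.23 and -0.03 in the count-based alternatives.

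For 11 members given by place, 33 log2 fold changes under 13 alternatives each gave 429 values. None changed direction, and 413 kept their side of the threshold, while 9 lost and 7 gained a call. Depth limits members at a few reads at 5 psu, where a count of 0 allows up to 3 counts.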
